A study of Mus musculus with 36 samples.

Results

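The comparison described here set B3 cells with inducible Ikaros against control B3 cells 2 h after the drug, and its members were the 6 DNase-seq libraries of that time point out of 36 in the series, 3 of each line. All 52788 DNase I hypersensitive sites (DHS) of the consensus list were kept. B3 is a mouse pre-B cell line that models the pre-BI stage. The Ikaros cells carried an MSCV retroviral vector for HA-tagged wild type Ikaros fused to the hormone-binding domain ERt2, followed by an IRES and GFP, and the control cells carried the same kind of vector with ERt2, IRES and GFP alone. Both were sorted as GFP-positive populations, not single clones, and both received 0.5 µM 4-hydroxytamoxifen 2 h before harvest, so the drug and ERt2 were shared by the groups and the Ikaros sequence was not. Replicates 4, 5 and 6 of each line came from batches 11, 12 and 13. Cells of both lines collected before the drug, at 0 h, are used below as the starting state and came from separate collections. The labels name the drug for these cells as well, whereas the methods describe them as untreated. Each set of 3 values below is given in the order of replicates 4, 5 and 6, and so of batches 11, 12 and 13. The comparison asks what had changed in open chromatin at the earliest time sampled after Ikaros was allowed into the nucleus.

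Ikaros is a zinc-finger transcription factor, encoded by Ikzf1, that is needed for lymphocyte development and limits the proliferation of pre-B cells. It binds DNA elements with a GGGAA core and is found in complexes with the Mi-2/NuRD chromatin remodeller, which moves nucleosomes and removes acetyl groups from histones. DNase I cuts where nucleosomes are displaced, at promoters and enhancers, so the number of cut fragments over a site measures how open it is. Signal is given here on the deposited log2 scale, in which a difference of 1 is a doubling. A DHS was called a promoter DHS when a transcription start site (TSS) lay within 1000 bp, and otherwise an exon, intron or intergenic DHS. A DHS was called higher or lower in Ikaros where the adjusted p of limma, over all 52788 DHS, was under 0.05. Intergenic DHS are named by the gene with the nearest TSS, without any claim that they act on it.

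At 2 h, 103 DHS were called, which is 0.195% of those tested. Of these 90 were higher in Ikaros (0.170%) and 13 were lower (0.0246%). The leading sites higher in Ikaros were small intronic and intergenic DHS and the coding exons of Ikzf1 itself, and the leading sites lower in Ikaros lay in Tbc1d16, which encodes a Rab GTPase-activating protein, and near Crisp1. The windows around the largest of them are shown first, because Ikaros was the factor that differed between the lines. They are 3 of the 15 largest higher and 2 of the 10 largest lower DHS that hold the Ikaros core TGGGAA on either strand within 200 bp of sequence around the centre, and, in each direction, the largest outside exons without it. Sequences are from the reference strand of GRCm38 (mm10), 5′ to 3′, and capitals mark TGGGAA or its reverse complement TTCCCA.
Gm48651 intron, higher, chr10:20777129-20777328: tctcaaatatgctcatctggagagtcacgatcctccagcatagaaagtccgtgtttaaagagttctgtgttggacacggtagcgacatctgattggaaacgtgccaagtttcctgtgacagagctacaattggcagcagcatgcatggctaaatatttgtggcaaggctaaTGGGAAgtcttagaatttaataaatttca
Pcp4l1 intron, higher, chr1:171193187-171193386: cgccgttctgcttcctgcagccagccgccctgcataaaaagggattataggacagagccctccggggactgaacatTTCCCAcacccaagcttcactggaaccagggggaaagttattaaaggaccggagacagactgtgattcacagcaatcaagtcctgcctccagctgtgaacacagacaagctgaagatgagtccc
Nhs intron, higher, chrX:161977434-161977633: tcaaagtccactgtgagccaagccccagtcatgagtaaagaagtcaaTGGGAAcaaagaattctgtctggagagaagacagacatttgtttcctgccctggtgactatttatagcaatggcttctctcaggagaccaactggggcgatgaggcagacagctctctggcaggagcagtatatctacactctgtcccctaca
Emb intron, higher, chr13:117242180-117242379: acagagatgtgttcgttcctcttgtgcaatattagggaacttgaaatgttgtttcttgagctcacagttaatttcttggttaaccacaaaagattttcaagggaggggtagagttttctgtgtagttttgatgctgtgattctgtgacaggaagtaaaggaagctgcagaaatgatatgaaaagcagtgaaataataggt
Tbc1d16 intron, lower, chr11:119191830-119192029: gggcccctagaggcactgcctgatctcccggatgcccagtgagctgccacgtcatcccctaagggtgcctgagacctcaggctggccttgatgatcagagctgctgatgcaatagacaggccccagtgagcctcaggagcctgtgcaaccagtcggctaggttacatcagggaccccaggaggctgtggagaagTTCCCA
near Gm48712, lower, chr13:95419543-95419742: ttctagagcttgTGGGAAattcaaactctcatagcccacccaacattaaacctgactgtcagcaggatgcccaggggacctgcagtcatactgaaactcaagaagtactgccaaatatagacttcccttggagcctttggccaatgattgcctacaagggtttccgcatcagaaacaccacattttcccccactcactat
near Crisp1, lower, chr17:40342545-40342744: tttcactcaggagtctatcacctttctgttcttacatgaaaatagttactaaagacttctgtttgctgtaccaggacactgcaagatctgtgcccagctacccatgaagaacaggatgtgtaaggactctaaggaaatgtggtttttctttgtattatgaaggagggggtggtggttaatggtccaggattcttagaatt

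TGGGAA, the form of the core that was searched, stood in 1 copy in each of the Gm48651, Pcp4l1, Nhs, Tbc1d16 and Gm48712 windows. No copy of it was found in the Emb and Crisp1 windows. A window can reach past the DHS at its centre. The copy in the Tbc1d16 window lay beyond the end of the DHS, and that in the Gm48651 window crossed the end. The shorter GGGAA was not counted, and the Emb window does hold it. In the shares that follow, the core is TGGGAA. Over all DHS, 17.2% held the core in the 200 bp window. Among the 90 higher DHS 16 held it, a share of 17.8%, and among the 13 lower DHS 3 held it, a share of 23.1%. With windows of 300 bp the shares were 24.7% of all DHS, 27.8% of the higher and 30.8% of the lower. DHS with the core had a median difference of -0.0041 at 2 h and those without it 0.014. The share of called DHS with the core was therefore near that of all DHS.

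Other motifs were counted in the same 200 bp windows on both strands, and none of them contains TGGGAA. GAGGAAGT, bound by PU.1, stood in 12.2% of the higher DHS against 5.07% of all DHS. TGTGGTTT, bound by Runx factors, stood in 14.4% against 4.53%, and CAGCTG, an E-box of E proteins, in 24.4% against 14.85%. The promoter-type motifs CCGGAAGT of Ets factors and GGGGCGGGG of Sp and Klf factors, present in 2.14% and 4.22% of all DHS, were not found in the 90 higher DHS. CTCF sites, searched by their consensus, were in 2.22% of the higher DHS and 6.01% of all DHS. These shares were not tested, and the higher DHS also held a smaller share of promoters than all DHS.

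The 6 libraries differed in their spread. Pairs of Ikaros libraries correlated at 0.816 to 0.868 over all DHS, pairs of control libraries at 0.632 to 0.647, and pairs across the lines at 0.699 to 0.752, so that control replicates resembled each other less than they resembled the Ikaros libraries. The mean SD between replicates was 0.240 in Ikaros and 0.482 in control, the latter the largest of the 12 groups of the series, which ranged upward from 0.231. The SD over all DHS within a library was 0.716 ± 0.026 in Ikaros and 0.973 ± 0.092 in control (SD, n = 3), and the exact permutation test gave p = 0.1, the smallest that 3 against 3 allow. Values below 1 were found at 2, 0 and 0 DHS in the Ikaros libraries and at 511, 233 and 301 DHS in the control libraries. The table holds no read counts and the methods give only a minimum depth, so no counting interval is given per library. Of 9 pre-B marker genes 8 had a promoter DHS, with group means from 3.55 to 5.99. Of the 5 T-cell markers only Lck had a promoter DHS, at 4.22 in Ikaros and 4.47 in control, none of the 5 myeloid and 2 muscle markers had one, and of the 3 erythroid markers only Klf1 did, at 4.55 and 4.46.

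The count of called DHS rested on the spread pooled over all 36 libraries. When the 6 libraries of 2 h were fitted alone no DHS passed, with 3473 at an unadjusted p under 0.05, and when each group was given its own spread 17 passed. With the batch as a replicate block 58 were called, 53 higher and 5 lower, all among the 103. Leaving out Ikaros replicate 4, 5 or 6 left 13, 16 or 20 calls, and leaving out control replicate 4, 5 or 6 gave 143, 501 or 295. The 3 Ikaros values and the 3 control values did not overlap in 102 of the 103, against 13.6% of all DHS. In those 102 leaving out a library could not change the direction, so that none of the 103 changed it in the 6 leave-outs says little.

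In all, 10 DHS, 9 higher and 1 lower, stayed called whichever of the 6 libraries was left out. They were 2 exon DHS of Ikzf1, introns of Gm48651, Emb, Pcp4l1 and Aff3, intergenic DHS near Lpl and Gm13925, the promoter DHS of Gm24325, and the Tbc1d16 intron. Their largest adjusted p over the 6 leave-outs was 0.0409, for the Emb and Tbc1d16 sites. Leaving out replicate 4, 5 or 6 of every group gave 23, 79 or 51 calls, of which 12, 25 and 20 were among the 103. Sites lost in this way included Gm48651, without replicate 6, and Emb and Pcp4l1, without replicate 5. Gm13925 and Aff3 are singled out here after their values were seen.

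The transcription factor itself gave the firmest calls. Ikzf1 held 14 DHS, none within 1000 bp of a TSS of the annotation, and 6 of them overlapped exons. All 6 exon DHS had positive differences, of 1.03 to 3.02 with a median of 1.67, and 3 of them were called. The 8 intron DHS ranged from -0.46 to 1.01 with a median of -0.02, and none was called. The exon DHS at chr11:11768688-11769688, which spans coding and untranslated sequence, read 5.60, 5.86 and 5.70 in the Ikaros libraries and 3.32, 2.17 and 2.61 in the control libraries. It was 8.13-fold higher (log2 difference 3.02, SE 0.32, limma adjusted p = 5.62e-06). The coding exon DHS at chr11:11748163-11748716 read 4.86, 5.04 and 5.06 against 1.89, 2.34 and 2.51, a 6.69-fold difference with SE 0.27 on the log2 scale and adjusted p = 1.44e-06. Both sets of 3 values were tight in Ikaros and far above every control value.

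The third called exon DHS, at chr11:11761028-11761528, read 3.80, 4.03 and 3.66 against 1.84, 2.58 and 1.69. Its difference was 1.79 (SE 0.38, limma adjusted p = 0.0381), and under the block of replicate numbers that p rose to 0.0541. It was called in only 1 of the 6 leave-outs, that without control replicate 5, with adjusted p up to 0.195 in the others. The same exons differed before the drug. The differences of the 3 called exon DHS, in the order above, were 3.61, 2.72 and 1.84 at 0 h. They were 4.08, 2.91 and 2.08 by 6 h. Their change from 0 h to 2 h was -0.58, 0.03 and -0.04, with limma adjusted p of 0.512, 0.978 and 0.975. The vector carries the Ikaros coding sequence, and reads from it and from the exons of the gene cannot be told apart in this table. The coding exon of the second DHS spans chr11:11748311-11748571, 261 bp, and is shown with its flanking intron in lower case.
Ikzf1 coding exon, higher, chr11:11748289-11748588: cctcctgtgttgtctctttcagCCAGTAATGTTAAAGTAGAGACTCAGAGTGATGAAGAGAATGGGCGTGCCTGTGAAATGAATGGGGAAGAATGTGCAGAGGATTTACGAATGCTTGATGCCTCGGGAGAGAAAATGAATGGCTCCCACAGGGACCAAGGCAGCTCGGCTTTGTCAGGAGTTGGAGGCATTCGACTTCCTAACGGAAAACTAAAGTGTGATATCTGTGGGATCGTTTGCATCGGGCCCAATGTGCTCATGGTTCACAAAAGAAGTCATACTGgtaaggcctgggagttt

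**Figure D1:**
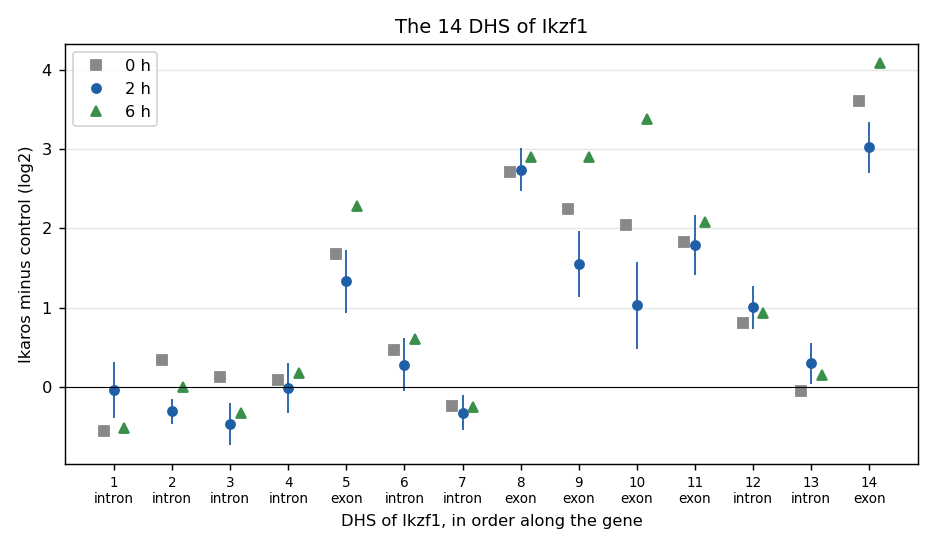
Difference of group means (Ikaros minus control, log2) for the 14 DHS of Ikzf1 in their order along the gene at 0 h (squares), 2 h (circles, bars are the SE of the fit) and 6 h (triangles), with 3 libraries per line and time. The 6 exon DHS lay between 1.03 and 3.02 at 2 h and were also positive at 0 h and 6 h, and the 8 intron DHS lay between -0.46 and 1.01.

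Outside Ikzf1, the largest difference was in an intron of the noncoding gene Gm48651 (chr10:20777157-20777302). The Ikaros libraries read 2.94, 4.07 and 3.72 and the control libraries 0.17, 1.28 and -0.04. The difference of 3.11 (SE 0.45, limma adjusted p = 0.00109) stood against -0.98 at 0 h, when the control libraries read 3.62, 3.81 and 4.35. The control values at 2 h were thus below those before the drug, while Ikaros values at 0 h spanned 1.57 to 3.74. At 6 h the difference was 0.71. The change from 0 h to 2 h was 4.09 (SE 0.64, adjusted p = 0.0136).

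The intron of Emb, which encodes embigin, a membrane partner of monocarboxylate transporters, held the next largest difference outside Ikzf1 (chr13:117242208-117242352). It read 4.13, 4.48 and 4.53 in Ikaros and 1.34, 0.60 and 2.75 in control, a difference of 2.81 (SE 0.46, limma adjusted p = 0.00486). In Ikaros the 3 values were close, and in control they spread over more than 2 log2 units. At 0 h the difference was 0.23. The DHS near Lpl, the gene of lipoprotein lipase (chr8:68857381-68857511, 23045 bp from its TSS), read 3.69, 3.46 and 3.42 against 1.10, 1.52 and 0.94. Its difference of 2.34 (SE 0.31, adjusted p = 0.000404) compared with 0.49 at 0 h and -0.03 at 6 h. At 12 h the difference was 1.40 and was called again (limma adjusted p = 0.0236). At 18 h and 24 h it was 0.49 and 1.13 and was not called.

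The Pcp4l1 intron (chr1:171193222-171193352), whose window holds the Ikaros core, read 3.63, 3.65 and 3.36 in Ikaros and 1.84, -0.23 and 1.26 in control. The difference was 2.59 (SE 0.41, limma adjusted p = 0.00361), against 0.82 at 0 h and 0.76 at 6 h. The other 9 of the 15 largest higher DHS had differences from 2.29 to 2.81. They lay in introns of Ubac2, Celf2, which encodes an RNA-binding splicing factor, Diaph1, which encodes an actin-nucleating formin, and Nhs, and near Eif5al3-ps, 1700049E22Rik, Gm28003, Gm37343 and AC124740.1. In these 9 the Ikaros means were 3.11 to 3.98 and the control means 0.63 to 1.69. Blocking on the replicate number ended the calls, by adjusted p, for Celf2 (0.0678), Nhs (0.0690) and 1700049E22Rik (0.0686). Each of the 9 was also lost in at least 1 leave-out of a single library.

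**Figure D2:**
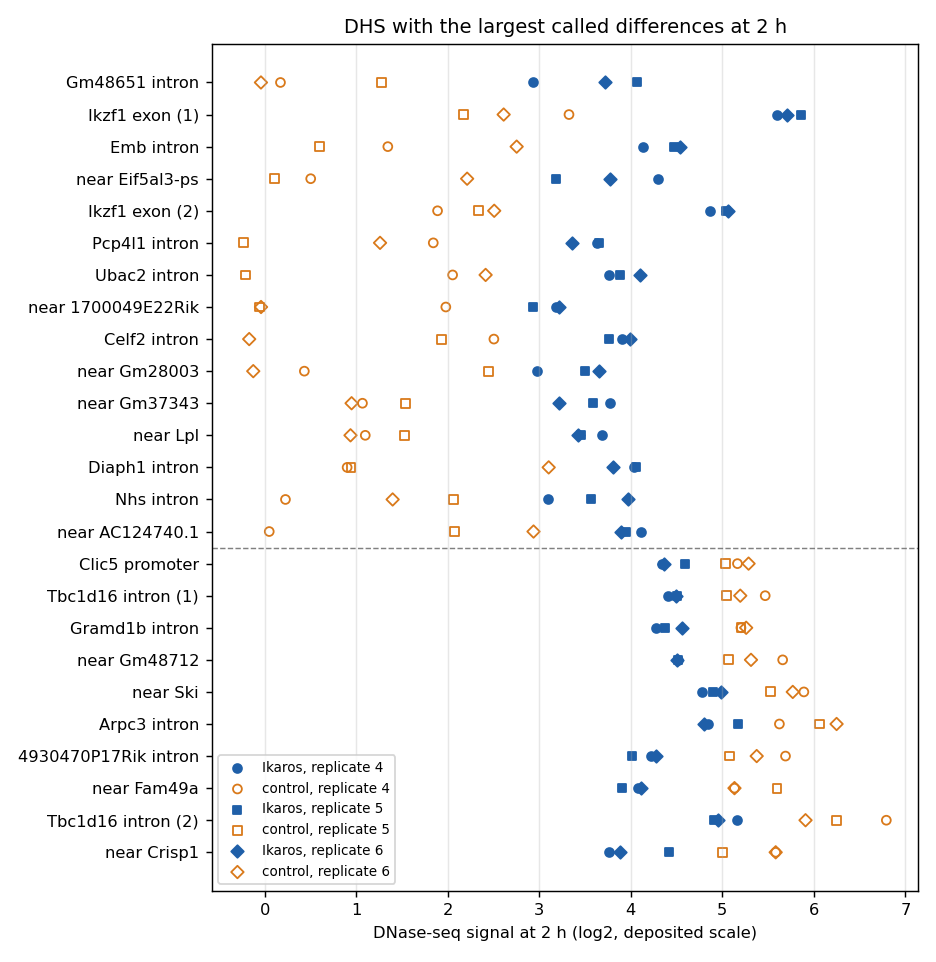
Signal (log2) of the 15 largest higher DHS (above the dashed line) and the 10 largest lower DHS (below it) in each library of 2 h, with filled symbols for Ikaros and open symbols for control and 1 symbol shape per replicate. At the higher DHS the Ikaros points had a smaller SD than the control points, which lay from below 0 to 3.32. The SDs were near each other at Gm48651 (0.58 in Ikaros, 0.71 in control) and near Gm37343 (0.29 and 0.31). At the lower DHS both lines lie within narrow ranges between 3.77 and 6.79.

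The 13 lower DHS were among the more open sites of the table. The median of their control means at 2 h was 5.38, against 3.97 over all DHS, and that of their Ikaros means was 4.47. The largest difference was at an intergenic DHS 23438 bp from the TSS of Crisp1 (chr17:40342575-40342716), with 3.77, 4.41 and 3.88 in Ikaros and 5.58, 5.00 and 5.58 in control. It was 2.58-fold lower (log2 -1.37, SE 0.21, limma adjusted p = 0.0034), and -1.26 at 0 h and -1.43 at 6 h. Without Ikaros replicate 4 its adjusted p was 0.0504. The Tbc1d16 intron DHS at chr11:119191862-119191999 read 5.16, 4.91 and 4.95 against 6.79, 6.24 and 5.91, a 2.47-fold difference (log2 -1.31, SE 0.21, adjusted p = 0.00421), with -0.997 at 0 h and -1.28 at 6 h. Both sites were thus lower in Ikaros before the drug as well as after it.

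A second intron DHS of Tbc1d16 lay 28499 bp away and had a log2 difference of -0.77 (adjusted p = 0.0328, or 0.0541 under the block). An intron of 4930470P17Rik had a difference of -1.21, an intergenic DHS near Fam49a of -1.26, an intron of Arpc3, a subunit gene of the actin-nucleating Arp2/3 complex, of -1.04, and an intron of Gramd1b, a sterol-transfer protein gene, of -0.82. A DHS near Gm48712, whose window holds the Ikaros core, had a difference of -0.83. Under the block the calls near Fam49a (adjusted p = 0.0541) and in Arpc3 (0.0592) were lost. Leaving out a single library ended the call of each of the lower DHS apart from that in Tbc1d16 at chr11:119191862-119191999.

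Only 8 of the called DHS were promoters, 5 higher and 3 lower, out of 13657 promoter DHS. All 5 higher ones belonged to genes that are not protein-coding, and none of the 11589 promoter DHS of protein-coding genes was called higher. The DHS at the TSS of Gm24325 (chr6:48420479-48420985) read 4.25, 4.49 and 3.98 against 2.68, 2.86 and 2.62, a difference of 1.52 (SE 0.21, limma adjusted p = 0.000941) against 0.92 at 0 h. The others were Gm30246 at 1.38, Gm29590 at 1.31, Gm24057 at 1.17 and Gm37322 at 1.09. Their adjusted p values were 0.0381, 0.0331, 0.0253 and 0.0231, and under the block those of Gm30246 and Gm29590 were 0.0611 and 0.0516. Each of these 4 was lost in a leave-out of a single library.

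The 3 lower promoter DHS all belonged to protein-coding genes. That of Zmpste24, the protease that matures prelamin A, read 4.75, 4.89 and 4.83 in Ikaros and 5.72, 5.50 and 5.28 in control, a difference of -0.67 (SE 0.14, limma adjusted p = 0.0366). That of Clic5, an intracellular chloride channel protein gene, had -0.73 (adjusted p = 0.0444). That of Faap20, a Fanconi anaemia core complex gene, had -0.72 (adjusted p = 0.0333). Under the block these p values were 0.0507, 0.0611 and 0.0554, so that no promoter DHS of a protein-coding gene was called under the block. At 0 h Zmpste24 and Clic5 differed by 0.20 and 0.05, and Faap20 by -0.42, when the median of all promoter DHS was 0.34. The 2 h values of both lines did not overlap at any of the 3 promoters, as at all 13 lower DHS.

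Called DHS lay within 50000 bp of each other in 6 pairs, and in all 6 both members had the same sign at 2 h, where 90 of the 103 calls were higher. Besides the Ikzf1 exons and Tbc1d16, these were 2 DHS in Polr1a, the gene of the largest RNA polymerase I subunit, 39 bp apart, at 0.99 and 2.14. A pair in Fli1, which encodes an Ets-family factor of blood cells, was 18119 bp apart, at 1.15 and 1.42. The Faap20 promoter at -0.72 lay 13459 bp from a DHS near Ski, the gene of a SMAD corepressor, at -0.84. These genes are named here after their values were seen, and under the replicate block the Fli1 DHS at chr9:32425408-32425932 was called with adjusted p = 0.0146. The second Fli1 site, the DHS near Ski and the wider of those in Polr1a were not, at 0.0554, 0.0631 and 0.0592.

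The differences at the other times were measured in other libraries, but the spread used for every call was pooled over all 36, so calls at different times are not independent. At all other 5 times, 10 of the 90 higher DHS were called higher as well, and 3 of the 13 lower DHS were called lower. At 6 h alone 0.422% of all DHS were called higher and 0.155% lower, so no larger share of all DHS was called at all 5 times. The 10 were the 2 Ikzf1 exons, Gm13925, Aff3, which encodes a lymphoid nuclear protein, 5031425E22Rik, Tmtc1, Gm24057, the first Fli1 site, Gm37322 and an exon of Flt3, the receptor tyrosine kinase gene of early progenitors, and all had widths over 500 bp. The 3 were those near Crisp1, in Tbc1d16 and in 4930470P17Rik. The Flt3 exon DHS (chr5:147340906-147341442) read 5.01, 4.58 and 4.60 in Ikaros and 3.45, 3.85 and 3.66 in control, a difference of 1.07 (SE 0.18, limma adjusted p = 0.0098), with 0.75 at 0 h and 1.25 at 24 h. The Aff3 intron DHS (chr1:38428659-38429297) read 3.85, 4.14 and 3.96 against 2.48, 2.49 and 2.96, a difference of 1.34 after 1.01 before the drug, and 1.57 by 6 h. The Fli1 DHS differed by 1.15 at 2 h, 1.51 before the drug and 1.70 by 6 h. Under the block the Tmtc1 intron, with a difference of 1.19, was not called (adjusted p = 0.0631). Such sites differed between the lines whether or not the drug had been given.

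Before the drug, 24 of the 90 higher DHS were called higher, when 7.81% of all DHS were. After 6 h this held for 21 of the 90 (0.422% of all DHS), after 12 h for 19 (0.887%), after 18 h for 24 (0.500%) and after 24 h for 22 (0.809%). Of the 13 lower DHS 5 were called lower before the drug, when 5.04% of all DHS were. The number was 5 after 6 h (0.155%), 8 after 12 h (0.428%), 6 after 18 h (0.199%) and 9 after 24 h (0.517%). None was called in the opposite direction at any time. In contrast, 55 of the higher DHS were called at no other time, and 49 of these 55 were at most 200 bp wide. The 35 called at 1 or more other times included 9 of that width. The median control level at 2 h was 1.86 for the 55 and 2.59 for the 35.

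In the higher DHS the control level stood apart at 2 h more than the Ikaros level. Over the 90 higher DHS the median of the Ikaros means was 4.04 before the drug, 3.89 at 2 h and 3.96 at 6 h, and stayed between 3.99 and 4.05 at the later times. The median of the control means was 3.46 before the drug, 2.08 at 2 h, 3.18 at 6 h and 3.19 to 3.23 later. The median difference was thus 0.45 before the drug, 1.75 at 2 h and 0.69 at 6 h. The 2 h values chose these DHS, so the gap between 2 h and the other times is a description. The control mean at 2 h was below 2 in 37 of the 90, a share of 41.1%, against 0.835% of all DHS. Replicate SDs at these DHS averaged 0.225 in Ikaros and 0.670 in control. The part of the control spread in these calls was not tested beyond the fits above.

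**Figure D3:**
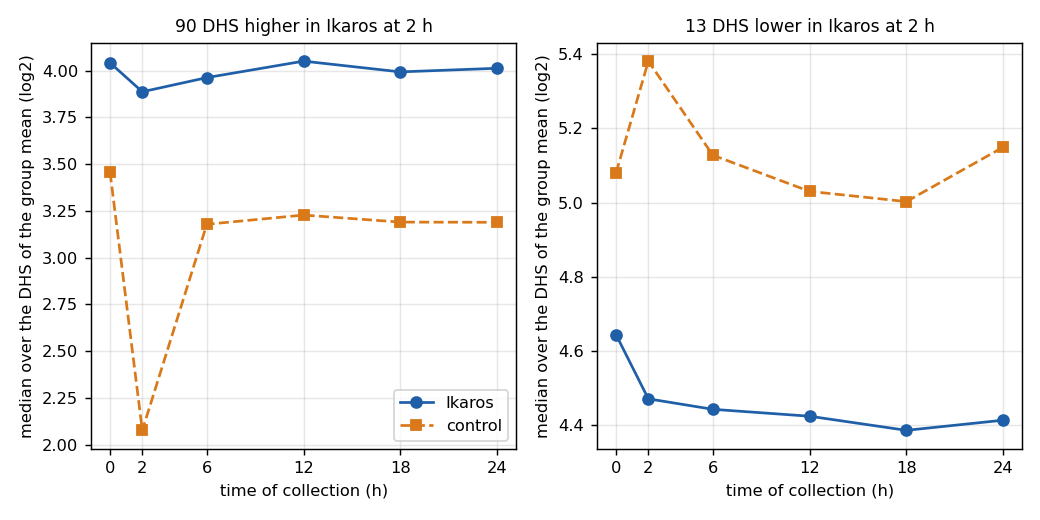
Median over DHS of the group mean (log2) at each collection time for the 90 DHS called higher and the 13 called lower in Ikaros at 2 h, with circles and solid lines for Ikaros and squares and dashed lines for control. In the 90 the control median went from 3.46 to 2.08 and 3.18 over the first 3 times while the Ikaros median stayed between 3.89 and 4.05.

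The lower DHS held more steady. Their median difference was -0.43 before the drug, -0.83 at 2 h, -0.64 after 6 h and -0.81 after 24 h, and all 13 were negative from 6 h to 24 h. Within them, the Zmpste24 and Clic5 promoters and the DHS near Ski were near 0 at 0 h, at 0.20, 0.05 and -0.15, and were called lower at 2 h, 12 h and 24 h. In the same order their differences at 24 h were -0.80, -0.81 and -1.13. Their change from 0 h to 2 h was not called. Over all promoter DHS the median difference was 0.34 at 0 h and -0.02 at 2 h, so the Zmpste24 and Clic5 promoters lay below it at both times.

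The test of the change from 0 h to 2 h compares the difference between the lines at 2 h with that before the drug. With the block absent it called 44 DHS (0.0834%, and 9724 at an unadjusted p under 0.05), 19 where the difference rose and 25 where it fell, and with the block 16, 9 rising and 7 falling. Leaving out single libraries moved this count from 0 (without control 0 h replicate 6 or Ikaros 2 h replicate 5) to 1938 (without control 2 h replicate 5). The count came to 21 and 600 without control 2 h replicates 4 and 6, 2 and 6 without Ikaros 2 h replicates 4 and 6, 74 and 1496 without control 0 h replicates 4 and 5, and 3, 152 and 418 without Ikaros 0 h replicates 4, 5 and 6. Of the 19 rises none was a promoter, 14 were at most 200 bp wide and 17 were called at 0 h. Of the 25 falls 20 were promoters and 24 were called at 0 h. Their median difference was -1.12 at 0 h and 0.76 at 2 h for the rises, and 0.91 and -0.29 for the falls. Most of these calls thus marked a 0 h difference that was gone or reversed at 2 h, and only 2 of the 44, both rises, were among the 103.

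The largest rises after Gm48651 were intergenic DHS near Fam89a, Dmkn and Lrrc58 and an intron of Ttc7, at 2.97, 2.68, 2.40 and 2.51. Near Fam89a (chr8:124739378-124739513) the Ikaros values were 2.84, 2.31 and 2.32 at 0 h and 3.41, 4.16 and 3.43 at 2 h, and the control values 3.96, 3.88 and 4.33 at 0 h and 2.13, 2.09 and 2.60 at 2 h. The lines crossed between these times, with a change of SE 0.47 and limma adjusted p = 0.0136. Its 2 h difference of 1.40 was not called (adjusted p = 0.0644). The largest falls were intergenic DHS near 2010008C14Rik and Stk11, the gene of the kinase LKB1, at -1.75 and -1.56, and the promoter DHS of Kmt2a, a histone H3K4 methyltransferase gene, Hnrnpdl and Rac1, a small GTPase gene, at -1.59, -1.55 and -1.53. At the Kmt2a promoter the difference was 1.49 at 0 h and -0.10 at 2 h. Under the block Ttc7 and all 5 falls were not called, with adjusted p from 0.0535 to 0.0643. From 2 h to 6 h no change was called (0 of 52788 DHS by limma), with 2119 DHS, or 4.01%, at an unadjusted p under 0.05.

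Across all DHS the lines were nearly level at 2 h, with a median difference of 0.01. Promoter DHS had a median of -0.02, exon DHS -0.03, intron DHS 0.03 and intergenic DHS 0.03. At 0 h the promoter median was 0.34. Batches did not share the 2 h promoter value, which was -0.23 in batch 11, 0.08 in batch 12 and 0.06 in batch 13, so its sign was opposite in batch 11. The promoter median per library was 4.59 ± 0.03 in Ikaros and 4.63 ± 0.13 in control (SD, n = 3, exact permutation p = 0.9, two-sided). The called DHS were placed otherwise, since 58 of the 90 higher were at most 200 bp wide, a share of 64.4% against 46.1% of all DHS, and 5.56% were promoters against 25.9%. At an unadjusted p under 0.05, 6.11% of all DHS were higher and 3.92% lower.

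The difference followed the level of a site. DHS were put into 10 equal bins by their mean level over all 36 libraries. In the lowest bin the median difference was 0.25 with 22 called higher, and in the highest it was -0.10 with 5 called lower and none higher. No lower call fell in the 6 lowest bins, and 1 higher call in the 2 highest. In the lowest of 5 equal bins by GC content the median was 0.11, made of 0.35 in batch 11 and -0.03 and -0.04 in batches 12 and 13. Medians by chromosome stayed between -0.04 and 0.04 apart from the Y chromosome, with -0.20 over 30 DHS. When trends with level, GC content and width were removed from each library 101 DHS were called, of which 76 were among the 103.

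**Figure D4:**
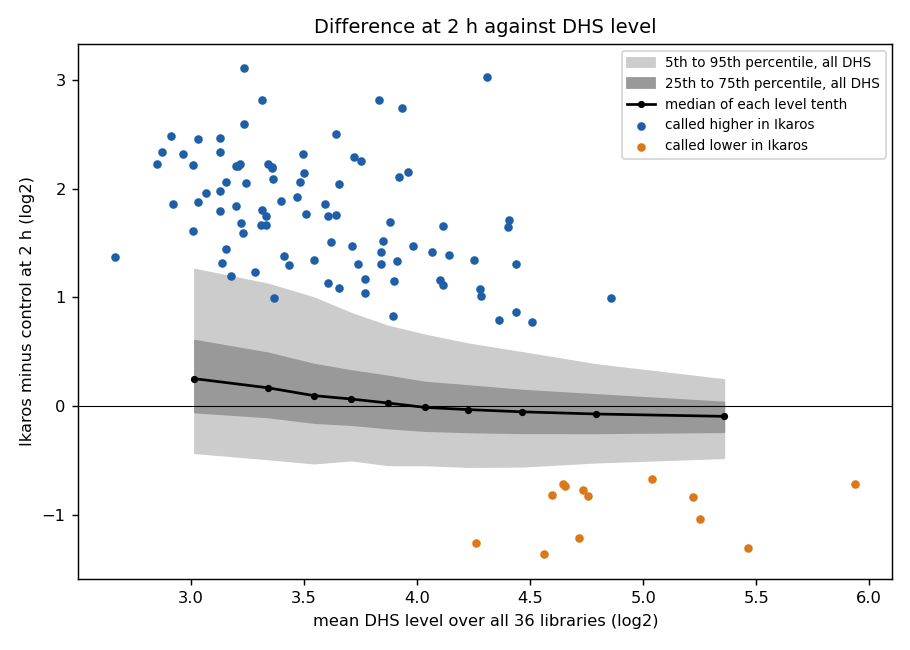
Difference (Ikaros minus control at 2 h, log2) against the mean level of the DHS over all 36 libraries (log2). Grey bands give percentiles of all 52788 DHS in 10 equal bins of level, the line their medians, from 0.25 in the lowest bin to -0.10 in the highest, and points the 90 DHS called higher and the 13 called lower.

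Promoter DHS of 15 gene lists were read for the pathways of the system, and none of their promoter DHS was called at 2 h in either direction. They are described by counts and medians beside those of all 13657 promoter DHS, whose median was -0.02, with 7230 (52.9%) below 0 and 504 higher and 522 lower at an unadjusted p under 0.05. In the Myc and growth control list, 13 of 14 genes had promoter DHS, 21 in all, and 7 of these were lower at that p and none higher. The list's median was -0.03, near that of all promoter DHS, with 13 of 21 below 0. By batch it was -0.39, -0.02 and 0.01 in batches 11, 12 and 13. Mycn, a proto-oncogene of the Myc family, had negative differences at both of its promoter DHS, with 3.84, 4.09 and 4.14 in Ikaros against 4.93, 4.57 and 4.93 in control at chr12:12942283-12942783, a difference of -0.79 (SE 0.21, limma adjusted p = 0.11). The other Mycn DHS differed by -1.03 (adjusted p = 0.152). The values of the lines did not overlap at either. The Myc promoter DHS read 4.66, 4.70 and 4.79 against 5.36, 5.07 and 5.01, a difference of -0.43 (SE 0.14, adjusted p = 0.23), after 0.42 at 0 h. The median of all promoter DHS at 0 h was 0.34.

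Glycolysis genes, 15 of 17 with promoter DHS, had 19 of 25 promoter DHS below 0 and a median of -0.16. The hexokinase gene Hk1 had -0.64 (limma adjusted p = 0.377) and Tpi1, the triosephosphate isomerase gene, -0.39 (adjusted p = 0.354). The 2 promoter DHS of Hk2 had -0.16 and -0.25, and those of Ldha, the lactate dehydrogenase A gene, 0.13 and -0.02. By batch the list's median was -0.48, -0.01 and -0.01 in batches 11, 12 and 13. Slc7a5, an amino acid transporter gene, had -0.03.

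The pre-B receptor list had 16 promoter DHS with a median of -0.09 and 11 below 0. Igll1, which encodes the surrogate light chain component lambda 5, read 4.86, 5.14 and 5.08 in Ikaros against 6.21, 5.42 and 5.21 in control, a difference of -0.59 (SE 0.20, limma adjusted p = 0.258). Its values did not overlap, and the differences per batch were -1.35, -0.28 and -0.13. Plcg2, the phospholipase of B-cell receptor signalling, had 0.61 (adjusted p = 0.398) with overlapping values. Among the 21 promoter DHS of B-lineage factors and markers 14 were above 0, with a median of 0.07, and none passed an unadjusted p of 0.05. Irf4 had -0.49 and Cd22 0.40.

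Immediate early genes had a median of -0.12 over 24 promoter DHS, with Egr1 at -0.52 (limma adjusted p = 0.152) and Dusp1, a MAP kinase phosphatase gene, at -0.46 (adjusted p = 0.38). The Egr1 values of 5.54, 5.26 and 5.18 in Ikaros lay below those of 5.98, 5.72 and 5.84 in control. Cell-cycle genes were balanced, with 13 of 26 promoter DHS on each side and a median of 0.01. Cdk1, the mitotic kinase gene, had -0.36 and Cdkn2a, the gene of cell-cycle inhibitors, -0.43. The lists of quiescence and Foxo targets and of Mi-2/NuRD subunits had medians of 0.12 and 0.08, with 11 of 16 and 11 of 14 promoter DHS above 0. Foxo1 itself had -0.05 (limma adjusted p = 0.973) and Foxo4 0.36. Rbbp7 had 0.51 and Mta3 0.44. Recombination and end-joining genes had a median of -0.06 over 9 DHS, with Xrcc6 at 0.45 and Xrcc5 at -0.35, and the DNA ligase IV gene Lig4 at 1.02 in a DHS of its own (adjusted p = 0.54) and -0.06 in one shared with Abhd13.

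The other lists had few promoter DHS. Of the Ikaros family only Ikzf5 had one, shared with Acadsb, at 0.03. T-cell markers had 4, with Notch1 at 0.19 and Gata3 at -0.22, the myeloid and progenitor list 1, Lyz2 at 0.13, and the erythroid list 2, both above 0 with a median of 0.48. The loci the study used to set the DNase I dose gave -0.28 for Ap2a1 and -0.59 for Igll1 among the open ones, and no promoter DHS for Myog and Myod1, the closed ones. In each list of 9 or more promoter DHS the batch 11 median was the lowest of the 3, as it was for all promoter DHS.

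**Figure D5:**
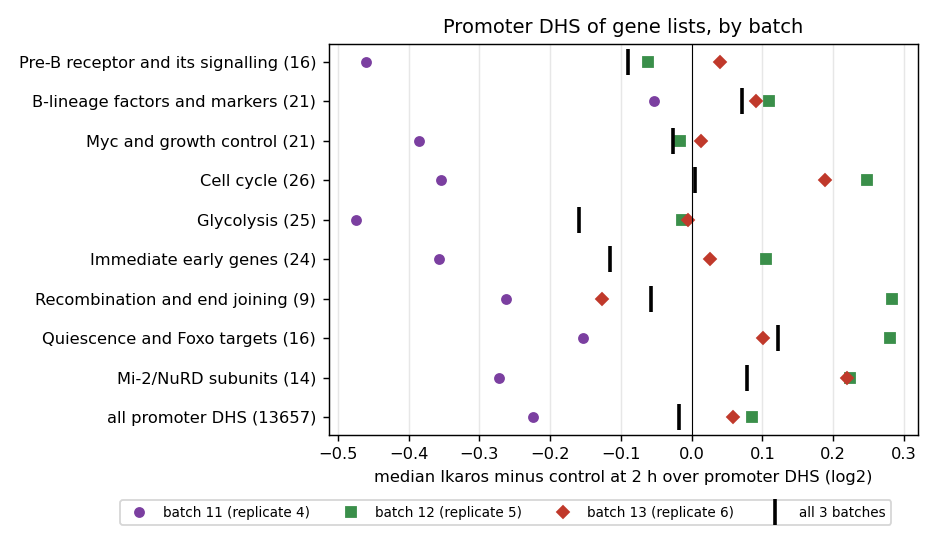
Median difference (Ikaros minus control at 2 h, log2) over the promoter DHS of each gene list with 9 or more of them (number in brackets), in batches 11, 12 and 13 (symbols) and over the 3 (bar). The batch 11 median lay below 0 in all 9 lists and at -0.23 over all promoter DHS, and batch 12 and batch 13 medians lay between -0.13 and 0.28.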

How the data were processed

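DNase-seq was read from 1 table of 36 libraries (12 groups of 3), of which 6 were the comparison. Per the paper's methods, the authors trimmed reads to 36 bp, aligned them to mm10 with Bowtie2, called DHS with HOMER, counted reads with bedtools, scaled them as RPKM with TMM and removed structured noise with ARSyN. The deposited values are log2 of that RPKM. The base is inferred, since base 2 gives 387801 to 432755 reads in DHS per library on the RPM scale, while base e gives 1704770 to 2148430, more than the whole library. ARSyN can shrink the spread between replicates, and the depth of each library is not in the table, the methods giving only a minimum.

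From the deposited log2 values, 12 group means were fitted over all 36 libraries with limma 3.58.1 in R 4.3.3 (trended moderated variance, 24 residual degrees of freedom, two-sided, Benjamini-Hochberg over 52788 DHS, threshold 0.05). The p-values measure the spread between these libraries. On simulated data made from this table, the fit recovered 35 of 100 DHS changed by 1 and 85 of 100 changed by 2 on the log2 scale, with 5 false calls. The simulated noise had 1 spread per DHS for all 36 libraries. In the data the mean replicate SD at 2 h was 0.240 in Ikaros and 0.482 in control. These rates therefore do not cover a spread that differs between the lines. DHS were annotated with GENCODE vM21 on GRCm38. Starts were taken as 1-based, which the file does not state. Summaries used Python 3.11.15, pandas 2.3.3 and scipy 1.17.1.

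The labels tie replicates 4, 5 and 6 to batches 11, 12 and 13 in both lines, so the numbers pair the samples. The deviations of same-numbered libraries from their group means correlated at -0.07, 0.03 and -0.04. Named DHS were the 15 largest higher and 10 largest lower calls whose groups did not overlap, every called promoter or Ikzf1 DHS, the 5 largest rises and falls per change, and, per gene list, the called promoter DHS or else the 2 with the smallest p, plus those of Igll1, Myc, Ldha, Foxo1, Lig4, Slc7a5, Hk2 and Ap2a1. Others are said to be chosen after their values were seen. The members and gene lists were chosen with earlier results of these data known.

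Alternatives were a replicate block, only the groups compared, quantile normalization, a filter on low levels, spread per group, no trend, robust spread, removal of each library's trends with width, GC content and level, and leaving out libraries. Leaving out single libraries of 0 h and 6 h was added after the data were seen. Values of a few listed genes are not reported here.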

Additional observations from a re-analysis of the deposited data

Results flagged for a closer look

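The difference between the lines changed from 0 h to 2 h, by a test of the change itself, at 44 DHS. The named rises were Gm48651 at 4.09, Fam89a at 2.97, Dmkn at 2.68, Ttc7 at 2.51 and Lrrc58 at 2.40 on the log2 scale. The named falls were 2010008C14Rik at -1.75, Kmt2a at -1.59, Stk11 at -1.56, Hnrnpdl at -1.55 and Rac1 at -1.53. With the replicate block 16 changes were called, and Ttc7 and all 5 named falls were not (limma adjusted p from 0.0535 to 0.0643). At Gm48651 the Ikaros value lay below the control value in all 3 batches at 0 h, with a mean difference of -0.98, and above it in all 3 batches at 2 h, and this count of batches was not itself tested.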

How the results depend on the processing

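The 103 calls at 2 h became 58 with the replicate block, 48 without the lowest 25% of levels, 26 after quantile normalization, 17 with a spread per group, 169 without the 0 h libraries, and 0 with only the groups compared, with or without the replicate block (3097 and 3473 DHS at an unadjusted p under 0.05). Leaving out libraries gave 13 to 501. The fits without a trend, with a robust spread and with trends removed gave 134, 93 and 101. The 44 changes from 0 h to 2 h became 253 without the lowest 25% of levels, 20 without a trend and 16 with the replicate block. They became 6 with trends removed and 5 after quantile normalization, all of them rises. With a spread per group, or with only the groups compared, blocked or not, the count was 0. Leaving out libraries gave 0 to 1938 here, and 0 to 7 for the change from 2 h to 6 h. The fits with fewer samples have fewer residual degrees of freedom, and otherwise the cause was not tested. Of the values for single DHS and lists under alternatives, 1148 stayed on their side of the threshold or, where there was no test, moved by less than the spread between replicates, 315 fell short of the threshold, 3 newly passed it, and none reversed. Values without a test moved in 2 cases, the median of the B-lineage list to 0.17 after quantile normalization and the share of higher DHS with the Ikaros core to 27.8% with a 300 bp window. The replicate block kept 58 of the 103 and added none. Read counts per library are not in the table, so no counting interval is given for the low control values of 2 h.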
